A study of Homo sapiens with 4 samples.

Results

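The AP-1 transcription factors examined here are 10 genes of the basic leucine zipper class, chosen by symbol in the deposited gene tables: FOS, FOSB, FOSL1, FOSL2, JUN, JUNB, JUND, ATF2, ATF3 and BATF3. All 10 were listed among the 15357 genes of the tables, and all 10 passed the filter on low counts that left 11955 genes for testing. The cells were RKO, a human colorectal cancer cell line in which BRAF carries an activating mutation. The vector group was 2 samples of RKO cells stably expressing a control short hairpin RNA (shRNA) from a lentivirus, and the shCHD7_2 group was 2 samples stably expressing shRNA-2 against CHD7, which encodes an ATP-dependent chromatin remodeller. Because 1 hairpin in 1 cell line was sequenced, loss of CHD7 and other effects of that hairpin cannot be told apart. Polyadenylated RNA was selected with oligo-dT beads, and the question put to the data was which AP-1 mRNAs differed between the groups.

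AP-1 is a family of protein dimers. JUN proteins pair with each other or with FOS proteins, while FOS proteins need a JUN partner to bind DNA, and the pairs recognise the TPA response element (TRE). ATF2, ATF3 and BATF3 also pair with JUN proteins, and pairs with ATF2 favour the related cyclic AMP response element (CRE). FOS, FOSB, JUN, JUNB and ATF3 are known as genes induced within minutes by serum or stress, whereas FOSL1, which encodes FRA-1, is known to be held high by sustained ERK signalling in epithelial cancers. MMP1, MMP3 and MMP10, which encode secreted proteases of the extracellular matrix, are textbook AP-1 targets.

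Short sequences are shown here for the members whose regulatory regions held a searched word, because FOSL2 proved to be the only member past both thresholds used below. Promoter windows from 250 bases before to 50 bases after the RefSeq start (GRCh38.p14) were at hand for FOS, FOSB, FOSL2, JUN, JUNB, JUND, ATF3 and MMP10, and not for FOSL1, ATF2, BATF3, MMP1 and MMP3. The TRE was searched as TGACTCA and the CRE as TGACGTCA, on both strands, and the CArG box that binds serum response factor by its general form. Among the members, the FOSL2 window held 1 TRE, beginning 4 bases after the start site, and the JUND window held 1 CRE, beginning 200 bases before it. In the lines below, capitals mark the searched word, and the first line lies at chr2:28392853-28392877 on the plus strand and the second at chr19:18281806-18281831 on the minus strand.
FOSL2 promoter: ccattgtagTGACTCAtctcgggca
JUND promoter: ccgcccccaTGACGTCAacccacaag
Over all 35116 windows of that length, 4.95% held the TRE, 1.85% the CRE and 1.29% a CArG box. No window of the other members, and not that of MMP10, held any of the 3 words. Sites outside these windows and variants of the words were not searched, so a member without a match here may still have such a site.

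In 3′ untranslated regions (the longest per gene in GENCODE 29), the word AGCTATT, which was linked to lower mRNA levels in an earlier look at these same samples, was present in FOSL2 and in FOSB. The first site below lies at chr2:28414598-28414624 and the second at chr19:45474529-45474555 of GRCh38, both on the plus strand, with the word in capitals.
FOSL2 site: gccaagtgggAGCTATTttcttttttg
FOSB site: cccattccttAGCTATTtatccctttc
FOSB was not lower in the shCHD7_2 samples, with overlapping groups and a log2 fold change of 0.091 (adjusted p = 0.653, edgeR). The other 8 members held neither AGCTATT nor the 2 words reported with it, GAAGCTA and GCTATTA. Of the 3 MMP genes, MMP3, which was higher in the shCHD7_2 samples, held GAAGCTA once. Of 11691 tested genes for which such a region was annotated, 22.4% held 1 or more of the 3 words. The region of FOSL2 is 4864 bases long and that of FOSB 2167 bases, both above the median of 1360 bases, and a longer region holds any given word more often. Since these words were picked on these libraries, their presence in FOSL2 is a description and not independent evidence. The AU-rich pentamer ATTTA, a feature of short-lived mRNAs, was present in all 10 members and in 73.0% of tested genes. The members held between 1.19 (FOSL1) and 6.20 (FOS) copies per kilobase, where the median over tested genes was 1.70, and FOSB, FOSL1 and JUND lay below that median.

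Levels of the members were compared per length, in FPKM, the fragment count divided by gene length and library size. FOSL1 was the most abundant, with FPKM of 287.4 and 252.7 in the vector samples and 234.7 and 249.1 in the shCHD7_2 samples, which ranked it 249 among the 15357 genes by mean FPKM. JUN followed, with FPKM of 137.6 and 125.4 in the vector samples and 128.8 and 132.0 in the shCHD7_2 samples. These 2 mRNAs made up between 83.0% and 84.8% of the summed FPKM of the 10 members in each sample. JUNB, with a mean FPKM of 22.4 over the 4 samples, stood clear of the next gene, ATF2, with 12.3. The ranges of ATF2 and BATF3 (mean FPKM 11.0) over the 4 samples overlapped, as did those of FOSB (8.13) and JUND (6.33) and those of JUND and ATF3 (6.08). Taken sample by sample, FOSB lay above JUND in all 4, whereas the order within each other pair changed between samples. FOS, with a mean FPKM of 4.92, and FOSL2, with 2.21, were the lowest. Every member had a whole number of estimated counts in all 4 samples, as is the case where no read is divided between genes.

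**Figure D1:**
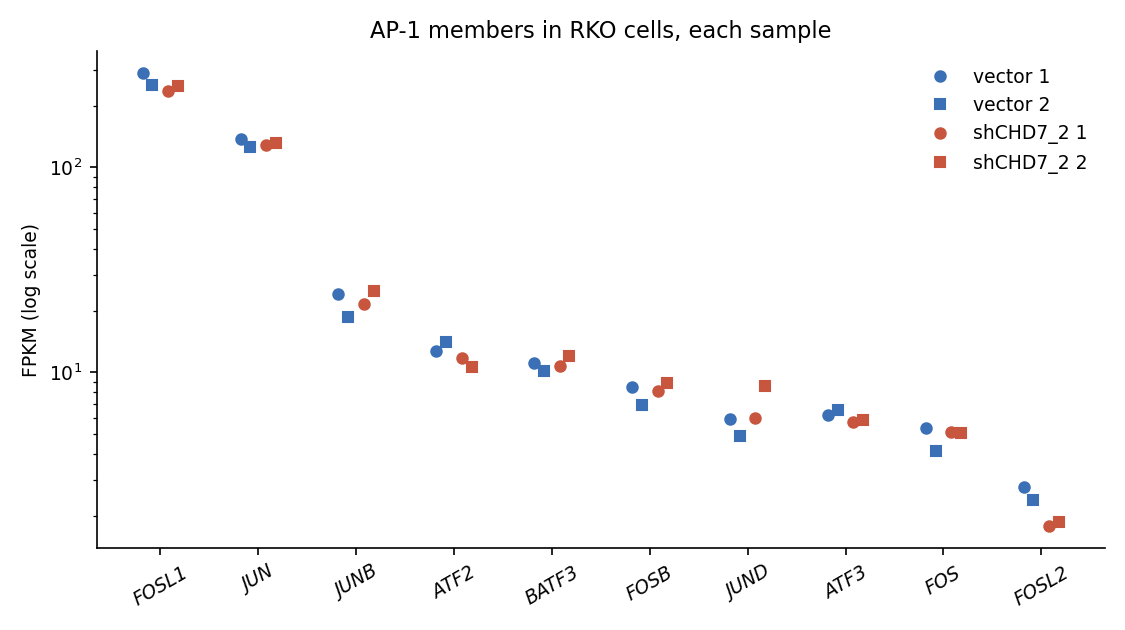
FPKM (log scale) of the 10 AP-1 members, ordered by mean, with 1 point per sample; blue points are vector samples and red points shCHD7_2 samples, circles for replicate 1 and squares for replicate 2. FOSL1 and JUN lie above 125 FPKM in every sample, and the FOSL2 points separate by group, 2.77 and 2.40 against 1.79 and 1.87.

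The libraries held between 15734679 and 16068650 estimated counts. CHD7 itself was lower in both shCHD7_2 samples, at 55.5 and 50.1 CPM (counts scaled to library size, with TMM factors) against 85.4 and 91.0 in the vector samples, so that it fell by 0.74 on the log2 scale (adjusted p = 4.2e-06, SE 0.088, edgeR, where SE is the standard error). Of 8 epithelial markers, 6 were listed, and KRT19 and VIL1 were not. EPCAM, KRT8, KRT18 and CDX2 were expressed, whereas CDH1 had at most 1 count and CLDN4 at most 3 counts in a sample. Of 10 fibroblast markers, 3 were listed, and their summed counts were between 2 and 9 per sample. Of 6 leukocyte markers, 3 were listed and CD68, with 13421 to 16345 counts, supplied nearly all their reads, while CD14 had at most 1 count. Of 4 endothelial markers, 2 were listed, with summed counts between 0 and 3.

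FOSL2 was the only member past both thresholds used here, and the abundant members did not pass them. A gene was called at a Benjamini-Hochberg adjusted p under 0.05 over all genes tested, from edgeR's quasi-likelihood test, and a fold change of at least 1.5. By this rule 1 of the 10 members was called, where 2.88% of all genes tested were called and 1.37% were called lower. At an adjusted p under 0.05 whatever the fold, 2 of the 10 members passed, FOSL2 and ATF2, both lower, where 11.5% of all genes passed, 4.94% as higher and 6.54% as lower. With 10 members, neither count can be told apart from these shares, so neither is read as a result about the family. The FOSL2 call was also lost under some of the settings given below. The median log2 fold change was -0.0017 over the members and 5.6e-04 over all genes tested. Both shCHD7_2 samples lay below both vector samples for 4 members (FOSL2, ATF2, FOSL1 and ATF3) and above them for 0, where 27.3% and 26.4% of all genes tested did so, or 53.7% in either direction. An exact permutation test of a single gene could not be used, since its smallest two-sided p for groups of 2 is 0.333. No source used here says that the samples of a group came from separate cultures, so p-values measure the spread between these samples only, which may be technical. In bulk RNA, fewer cells expressing a gene and less RNA per cell cannot be told apart.

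Among the FOS members, FOSL2 (chr2:28392448-28417312, plus strand, GRCh38 as for all positions here), which encodes FRA-2, was at 15.1 and 13.7 CPM in the vector samples and at 9.54 and 9.40 in the shCHD7_2 samples. The groups did not overlap, and the samples within each group lay close together. The log2 fold change was -0.60 (SE 0.14, adjusted p = 0.00541, edgeR), a fold of 0.658 with a 95% interval from 0.539 to 0.803. The estimate therefore lay just past the fold threshold and its interval reached to the other side of it. These values rested on 235 and 216 counts in the vector samples and 153 and 150 in the shCHD7_2 samples. Without vector replicate 1 the log2 fold change of FOSL2 was -0.53 (adjusted p = 0.0651, edgeR) and the call was lost, while it was between -0.68 and -0.59 without each of the other samples and remained called. With library totals in place of TMM the log2 fold change was -0.56 (adjusted p = 0.00946, edgeR), so that it passed the adjusted p but not the fold. Without a filter on low counts it was -0.61 and missed the adjusted p (0.0687, edgeR). On the deposited FPKM values the log2(FPKM + 1) difference, which understates the change of low genes, was -0.34 (adjusted p = 0.0763, limma). With the smaller pseudocount of 0.1 the difference was -0.47, still short of both thresholds (adjusted p = 0.0825, limma).

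FOSL1 (chr11:65892049-65900573, minus strand) was at 457 and 402 CPM in the vector samples and at 361 and 387 in the shCHD7_2 samples. The groups did not overlap, but the gap between the nearest samples was smaller than that between the vector samples. Its log2 fold change was -0.20 (SE 0.077), a fold of 0.871 with an interval from 0.780 to 0.973, and it did not pass after adjustment (adjusted p = 0.0991, edgeR). Without shCHD7_2 replicate 2 the adjusted p of FOSL1 was 0.0274 at a log2 fold change of -0.25, and without vector replicate 1 it was 0.684 at -0.11. FOS (chr14:75278774-75282230, plus strand), the prototype of the family, was at 10.9 and 8.42 CPM in the vector samples and at 10.0 and 9.96 in the shCHD7_2 samples, so that both shCHD7_2 samples lay between the vector samples. FOSB (chr19:45467995-45475179, plus strand) was at 30.9 and 25.3 CPM in the vector samples and at 28.3 and 31.5 in the shCHD7_2 samples. The groups overlapped for both genes. The intervals of the fold ran from 0.830 to 1.29 for FOS (adjusted p = 0.874) and from 0.911 to 1.24 for FOSB (adjusted p = 0.653, both edgeR), and without vector replicate 2 the direction turned for each. Exons of FOSB share no bases with ERCC1, which lies across it on the opposite strand.

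Of the JUN members, JUN (chr1:58780788-58784327, minus strand), a gene with a single exon, was at 441 and 403 CPM in the vector samples and at 399 and 413 in the shCHD7_2 samples. The groups overlapped, and the log2 fold change of -0.055 (SE 0.073, adjusted p = 0.691, edgeR) was smaller than its error. On the log2 scale the interval of JUN was the narrowest of the 10. As a fold it ran from 0.867 to 1.07, so a change of 1.5-fold in either direction lay outside it. JUNB (chr19:12791496-12793315, plus strand) was at 40.6 and 31.4 CPM in the vector samples and at 35.1 and 41.0 in the shCHD7_2 samples, with an interval of the fold from 0.900 to 1.24 (adjusted p = 0.702, edgeR). Here too the groups overlapped. Of the exonic bases of JUNB, 14.2% are shared with HOOK2 on the opposite strand. The sources used here do not say whether counting used strand, so which gene the reads of this stretch came from is not known. Estimated counts of both genes were whole in all 4 samples. HOOK2 had a log2 fold change of -0.12 (adjusted p = 0.612, edgeR).

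JUND (chr19:18279760-18281622, minus strand) was the member that varied most between samples, with a highest FPKM 1.75 times its lowest. It was at 10.8 and 8.93 CPM in the vector samples and at 10.5 and 15.3 in the shCHD7_2 samples, so shCHD7_2 replicate 2 stood above the other 3 samples, which lay close together. The log2 fold change of 0.39 (SE 0.17) did not pass (adjusted p = 0.143, edgeR), and the interval of the fold, from 1.03 to 1.66, included 1.5. Without shCHD7_2 replicate 1 it was 0.63 (adjusted p = 0.0033) and passed both thresholds, and without shCHD7_2 replicate 2 it was 0.094 (adjusted p = 0.822, edgeR), so the size for JUND rested on shCHD7_2 replicate 2.

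ATF2 (chr2:175072250-175168382, minus strand), a partner of JUN that is activated by the stress kinases JNK and p38, was at 51.2 and 56.9 CPM in the vector samples and at 46.2 and 41.9 in the shCHD7_2 samples. The groups did not overlap. The log2 fold change was -0.30 (SE 0.093, adjusted p = 0.0396, edgeR), a fold of 0.814 with an interval from 0.713 to 0.930, short of the fold threshold. The adjusted p of ATF2 passed 0.05 under 3 of 13 alternatives and ran from 0.0112 to 0.451 over them in edgeR, DESeq2 and limma. With the replicate number as a block it was 0.170 (edgeR), and without vector replicate 2 it was 0.451 at a log2 fold change of -0.22. ATF2 shares 4.28% of its exonic bases with AC096649.1 on the opposite strand. ATF3 (chr1:212565334-212620777, plus strand), a stress-induced repressor and activator, was at 13.0 and 13.5 CPM in the vector samples and at 11.7 and 11.8 in the shCHD7_2 samples, a log2 fold change of -0.17 (adjusted p = 0.456, edgeR). The ATF3 groups did not overlap, yet the counts behind them, 187 to 213 per sample, left an interval of the fold from 0.731 to 1.08. BATF3 (chr1:212686418-212699985, minus strand), a leucine zipper factor that pairs with JUN proteins, was at 9.47 and 8.74 CPM in the vector samples and at 9.23 and 10.2 in the shCHD7_2 samples. These groups overlapped, with an interval of the fold from 0.859 to 1.32 (adjusted p = 0.757, edgeR).

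**Figure D2:**
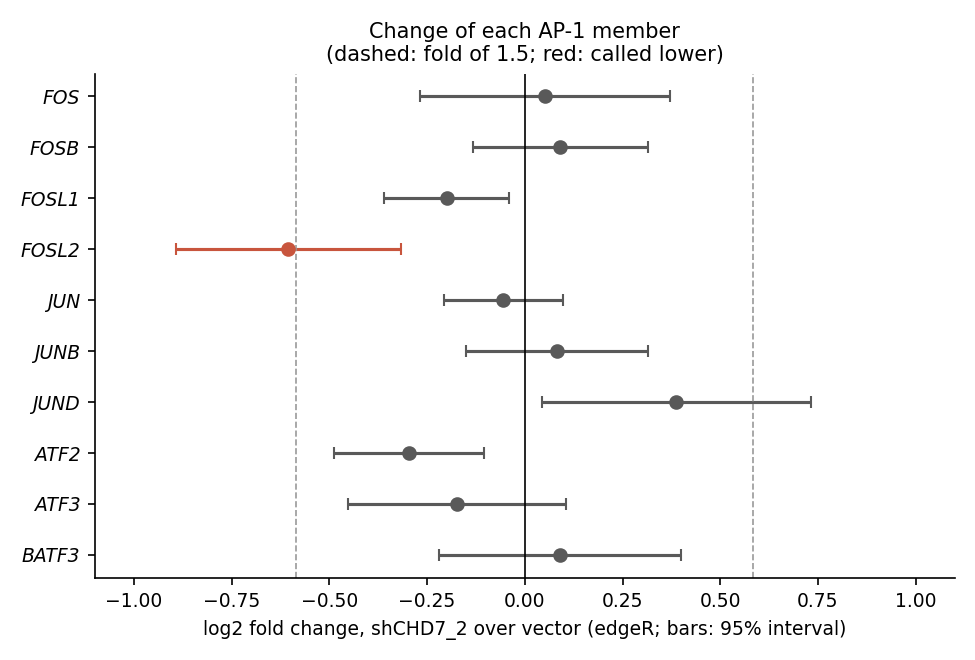
Log2 fold change of each AP-1 member, shCHD7_2 over vector, as a point with its 95% interval from edgeR (not adjusted for the number of genes); dashed lines mark a fold of 1.5. The FOSL2 interval (red, called lower) lies below 0 and crosses the lower dashed line, the JUND interval reaches the upper one, and the other 8 stay between the lines.

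The subfamilies were also compared as sums. Summed FPKM of the 4 FOS members was 304.1 and 266.3 in the vector samples and 249.7 and 264.9 in the shCHD7_2 samples. Summed FPKM of the 3 JUN members was 167.6 and 148.9 against 156.4 and 165.5. The former groups did not overlap but their nearest samples were close, and the latter overlapped. The ratio of the FOS sum to the JUN sum was 1.81 and 1.79 in the vector samples and 1.60 in both shCHD7_2 samples, so that the groups did not overlap and each pair lay close together. This ratio was set mostly by FOSL1 and JUN and was not tested. Within the vector group, 8 of 10 members were higher in replicate 1 than in replicate 2, where 48.3% of all genes tested were, and within the shCHD7_2 group 3 of 10 were, where 49.9% of all genes tested were.

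**Figure D3:**
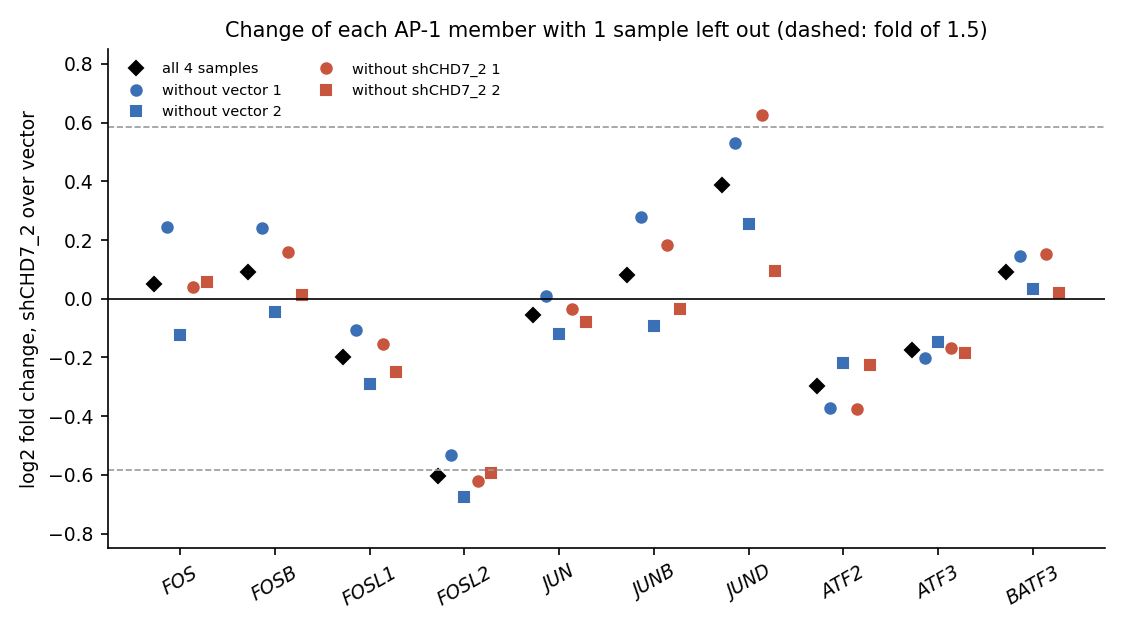
Log2 fold change of each AP-1 member from edgeR with all 4 samples (diamonds) and with each sample left out in turn (blue, a vector sample left out; red, a shCHD7_2 sample left out); dashed lines mark a fold of 1.5. FOSL2 stays between -0.68 and -0.53 in all 5 fits, ATF2 stays below 0, and JUND moves between 0.094 and 0.63.

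The genes whose values over the 4 samples were most like those of FOSL2 were sought by the root mean square difference in log2 CPM after centring each gene, over 11954 other genes. The nearest were NDST1 at 0.021, TBC1D3E at 0.024, ZNF75A at 0.032 and C15orf38-AP3S2 at 0.038. Because they were picked for this likeness, fold changes near that of FOSL2 follow from the choice. The log2 fold change was -0.57 for NDST1 (adjusted p = 1.4e-04) and -0.61 for C15orf38-AP3S2 (adjusted p = 0.00374, both edgeR). It was -0.59 for TBC1D3E (adjusted p = 0.0441) and -0.59 for ZNF75A, which did not pass (adjusted p = 0.0997, both edgeR). TBC1D3E has near-identical copies and C15orf38-AP3S2 is a read-through gene, so their counts are uncertain.

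Other basic leucine zipper genes that pair with AP-1 proteins or share their sites gave no call. Of 26 on the list, 22 were tested and 0 were called by edgeR, DESeq2 or limma in any of 13 alternatives. An unadjusted p under 0.05 in edgeR was seen for 10 of the 22, a larger share than the 25.4% of all genes tested. With 2.88% of all genes called, 0 of 22 is near the background. At an adjusted p under 0.05 alone, 1 of the 22 was higher and 4 were lower, where 4.94% and 6.54% of all genes tested were. These differences in share were not tested. CEBPB, a factor of inflammatory and stress genes, rose from 77.9 and 71.6 CPM to 99.5 and 111.7 CPM, a log2 fold change of 0.50 (adjusted p = 4.7e-04, edgeR). ATF4, the effector of the integrated stress response, fell by 0.27 on the log2 scale (adjusted p = 0.0129, edgeR), and MAFF, a small MAF protein, fell by 0.33 (adjusted p = 0.028, edgeR). The others that passed, ATF1 and CREB1, both CRE-binding factors, fell by 0.29 and 0.30 (adjusted p = 0.0403 and 0.0449, edgeR). The median log2 fold change of the list was -0.023.

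Known AP-1 target genes held 4 calls among 25 tested, all higher, out of 38 on the list, of which 30 were in the table. These calls were 16% of the targets tested, where 2.88% of all genes tested were called and 1.51% were called higher. Of the 4, MMP3, MMP10 and CXCL8 had at most 7 counts in either vector sample and passed the filter on low counts through the shCHD7_2 samples where they are high, so the filter itself admitted them in that direction only. The proteases MMP1, MMP3 and MMP10 were on the list because they are named with the members. Their calls are therefore not independent evidence of the share called or of the direction of the list. Apart from these 3 and CXCL8, no tested target was called, so the 16% is not read as a result about AP-1 targets. MMP1 was at 2.19 and 2.66 CPM in the vector samples and at 31.9 and 30.1 in the shCHD7_2 samples. MMP10 had 1 and 6 counts against 107 and 88, a ratio of 27.3 with an exact counting interval from 13.0 to 68.7. MMP3 had 1 and 3 counts against 36 and 17, a ratio of 13.0 with an interval from 4.78 to 49.3. For all 3 the groups were far apart, and these intervals cover counting error only. The log2 fold changes were 3.67 for MMP1 (adjusted p = 1.6e-13), 4.72 for MMP10 (adjusted p = 1.0e-08) and 3.62 for MMP3 (adjusted p = 2.7e-04, all edgeR). The low vector counts left the sizes imprecise, since without vector replicate 1 they were 3.97 for MMP10 and 3.07 for MMP3, and without vector replicate 2 they were 6.40 and 4.52. Of exonic bases, 7.61% of MMP1 and 1.56% of MMP3 are shared with WTAPP1. CXCL8, the chemokine interleukin-8, was the other call, with 7 and 5 counts against 44 and 24, a ratio of 5.55 with an interval from 2.98 to 11.3 (log2 fold change 2.45, adjusted p = 5.1e-04, edgeR).

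The other AP-1 targets moved in both directions. CD44, the hyaluronan receptor, fell by 0.42 on the log2 scale (adjusted p = 4.7e-04), PLAU, the urokinase plasminogen activator, by 0.48 (adjusted p = 0.00289) and MMP14, a membrane-bound protease, by 0.32 (adjusted p = 0.0173, all edgeR). LIF, a cytokine, rose by 0.29 (adjusted p = 0.0189) and MT2A, a metallothionein, by 0.28 (adjusted p = 0.02, both edgeR). None of these 5 reached a fold of 1.5. The remaining 16 tested targets did not pass the adjusted p, among them CCND1, the cyclin D1 gene, with a log2 fold change of 0.22 (adjusted p = 0.0727, edgeR). The median of the list was 0.10, against 5.6e-04 over all genes tested. It includes the MMP genes named with the members, and CXCL8, which like MMP3 and MMP10 the filter admitted through the shCHD7_2 samples. The median is therefore not evidence of a direction of the list. AREG, CDKN2A, EREG, GJA1 and SPP1 were listed with at most 10 counts in a sample and were not tested. The AP-1 mRNAs and these targets were measured in the same samples, and no value here bears on AP-1 protein, its phosphorylation or its binding to DNA.

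Genes that act on AP-1 were called about as often as genes at large, of which 2.88% were called and 25.4% had an unadjusted p under 0.05. Of 30 genes of the MAP kinase cascades, which induce and phosphorylate AP-1 proteins, 28 were tested and 1 was called (3.57%), RPS6KA2, a ribosomal S6 kinase downstream of ERK. It fell from 18.7 and 18.3 CPM to 10.6 and 12.6 CPM, a log2 fold change of -0.67 (SE 0.13, adjusted p = 0.0013, edgeR), and lost the call without shCHD7_2 replicate 1 (-0.56, adjusted p = 0.00577, edgeR), where it missed the fold. MAP3K7 and RPS6KA4 had the next smallest p, with log2 fold changes of -0.20 and 0.24 (adjusted p = 0.123 and 0.129, edgeR). Median log2 fold change over the cascade was 0.0020.

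Of 8 tested factors that bind the FOS or JUN promoter, 0 were called by edgeR and 2 had an unadjusted p under 0.05, the same share as over all genes tested. STAT3, a cytokine-activated factor, rose from 66.6 and 63.4 CPM to 86.4 and 83.6 CPM, a log2 fold change of 0.39 (adjusted p = 0.00355, edgeR), and CREB1 was given above. ELK3, an ETS partner of serum response factor, was at 0.13 (adjusted p = 0.287), and SRF, serum response factor itself, at -0.033 (adjusted p = 0.854, both edgeR). The list's median was -0.015. Among 14 genes of JUN and FOS protein and mRNA turnover, all tested, 0 were called by edgeR and 2 had an unadjusted p under 0.05, against 25.4% of all genes tested, and neither list held a call in DESeq2 or limma. DET1, an adaptor of the ubiquitin ligase for JUN, rose by 0.41 on the log2 scale (adjusted p = 0.0451, edgeR). USP28, a deubiquitinase, was at 0.19 (adjusted p = 0.19) and CUL4A, a cullin, at -0.15 (adjusted p = 0.218, both edgeR). The median of these 14 was 0.043.

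Immediate early genes, which serum and stress induce together with FOS and JUN, were called in both directions. Of 30 tested, 2 were called higher and 2 lower (13.3% in all), with a median log2 fold change of -0.031. Among all genes tested 2.88% were called, 1.51% higher and 1.37% lower, and the difference in share was not tested. DUSP5 and DUSP6, phosphatases that inactivate ERK, were higher, DUSP5 from 147.4 and 138.2 CPM to 254.3 and 264.7 CPM (log2 fold change 0.86, adjusted p = 4.4e-08, edgeR) and DUSP6 with a log2 fold change of 0.69 (adjusted p = 8.8e-07, edgeR). CYR61 and CTGF, matricellular proteins now named CCN1 and CCN2, were lower. CYR61 fell from 178.8 and 171.7 CPM to 102.1 and 110.5 CPM (log2 fold change -0.72, adjusted p = 1.2e-06, edgeR), and CTGF fell by 1.15 on the log2 scale (adjusted p = 2.3e-05, edgeR). EGR1, a zinc finger factor that responds to the same signals as FOS, fell by 0.30 (adjusted p = 0.016, edgeR), short of the fold threshold. In all, 3 of the 30 tested immediate early genes were higher and 5 lower at an adjusted p under 0.05 alone. These shares were larger than the 4.94% and 6.54% of all genes tested, and the differences were not tested.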

How the data were processed

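RNA-seq was measured in 2 vector and 2 shCHD7_2 samples, grouped by their titles. The authors deposited expected counts (estimated read counts, not normalized) and FPKM values, scaled by the authors to gene length and sequencing depth. The submitters' processing notes name Bowtie2, RSEM, DESeq2 and hg38; annotation, filters and strand setting are not given in the sources used here. Between 13.6% and 14.7% of count values per sample were not whole, as when reads are divided between similar genes.

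Counts were rounded, filtered with filterByExpr, scaled by TMM and tested with edgeR 4.0.16 in R 4.3.3, without a block. Standard errors come from the F statistic. The fold threshold of 1.5 and the adjusted p of 0.05 are those the study states. FPKM was tested with limma 3.58.1 and counts also with DESeq2 1.42.0. Libraries of a group differed by more than counting noise (chi-square per gene 3.94 and 6.06). Positions and 3′ untranslated regions are from GENCODE 29 (GRCh38, the assembly called hg38), and promoter windows from RefSeq, matched by symbol.

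The members and lists were chosen with earlier results of these data known. Genes named are the members, CHD7, the 3 MMP genes, up to 8 called genes per list, or the 3 of smallest p where fewer were called, and the 4 genes nearest to the member of smallest p. ATF4, MAFF, ATF1, CREB1, MMP14, LIF, MT2A, CCND1, PLAU, CD44, SRF, EGR1, HOOK2, ERCC1, the untested AP-1 targets and the cell type markers fall outside that rule or were named after their values were seen.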

Additional observations from a re-analysis of the deposited data

How the results depend on the processing

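Of the 10 members, 1 was called, and 0 were called with library totals, without a filter on low counts, and by limma with a pseudocount of 1 or 0.1 and with no filter. Leaving out each sample gave between 0 and 2 members called. At an adjusted p alone, 2 members passed, against 1 with library totals, in DESeq2 and with the replicate block, 0 without a filter on low counts and 0 in each limma setting, between 0 and 3 with a sample left out, and 4 with the replicate numbers crossed. The replicate numbers are shared by the groups, but same-numbered samples had a correlation of -0.198 in their deviations across genes, so they were not taken as pairs. The replicate block called 329 genes, 324 of them among the 344 called without it, and the crossed pairing, chosen after seeing the data, called 423 genes.

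Over all genes, 344 were called (180 higher and 164 lower), against 221 in DESeq2 (93 and 128), 141 without a filter on low counts (53 and 88), 172 by limma on log2(FPKM + 1) (86 and 86) and 8 by limma with no filter (2 and 6). CHD7 missed the fold on the FPKM scale, at -0.51 with a pseudocount of 1 and -0.58 with 0.1, and at -0.51 with no filter it also missed the adjusted p (0.127, limma). Directions turned for FOS (-0.12), FOSB (-0.047) and JUNB (-0.094) without vector replicate 2, for JUN (0.0098) without vector replicate 1 and for JUNB (-0.034) without shCHD7_2 replicate 2. With a sample left out, the highest values were 0.25 for FOS, 0.24 for FOSB and 0.28 for JUNB. AP-1 targets called numbered 2 without a filter on low counts, 2 by filtered limma with either pseudocount and 1 by limma with no filter. Without the filter on low counts, MMP3 and CXCL8 missed the adjusted p (0.0826 and 0.0811, edgeR). In the filtered limma fits both lay under the minimum mean FPKM of 1 and were not tested. MAP kinase calls fell to 0 without a filter on low counts, by limma with a pseudocount of 1 filtered or not, and ranged from 0 to 1 with a sample left out. Immediate early calls fell to 0 by limma with no filter. The causes were not tested. Fits without a sample leave 1 sample in a group, which is assumed to vary like the other. FOS, FOSL2, JUND, ATF3 and BATF3 rest on under 250 counts in each sample.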
